A study of Mus musculus with 6 samples.

Results

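The mRNAs of the zona pellucida glycoproteins, Zp1, Zp2 and Zp3, were followed through polysome fractionation of mouse oocytes from aged females (AF). The 3 genes were chosen by name, as the structural genes of the mouse zona, out of 25899 gene symbols in the deposited table, and each symbol had a single row. The libraries came from oocytes of 58 weeks old CD1 mice, given 5 IU of pregnant mare serum gonadotropin (PMSG) 46 h before collection and cultured without a meiotic block for 180 min. After nuclear envelope breakdown (NEBD), oocytes received cycloheximide at 0.1 mg/ml, which holds ribosomes on the mRNA, and 200 oocytes were lysed per sample. Lysates were run on sucrose gradients, whose fractions were pooled into a non-polysomal part (NP) and a polysomal part (P). There were 3 NP and 3 P libraries, all 6 with this strain, age, PMSG and cycloheximide, and 1 number of oocytes per sample. The labels give the strain and age used here, and the methods name the mice as ICR with another age. Libraries of younger females were not analysed here. No source used here says that replicate numbers stand for separate groups of mice, so the p-values measure the spread between these libraries, which may be in part technical.

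The zona pellucida is the extracellular coat of the oocyte, through which sperm must bind and pass. The growing oocyte transcribes the 3 genes, sends the proteins through the endoplasmic reticulum and Golgi, and releases them at the plasma membrane, where ZP2 and ZP3 build filaments that ZP1 cross-links. Synthesis belongs to the growth phase, and after fertilization ZP2 is cleaved by the cortical granule protease ovastacin, which hardens the coat.

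The ends of the 3 coding regions are shown because they are the feature the mRNAs share most plainly: each stop codon lies close to, or inside, a polyadenylation signal. The sequences are read 5′ to 3′ on the transcript strand of GRCm38, from 6 bases before the stop codon, with AATAAA in capitals. The Zp3 line is shorter because the annotated transcript ends there.
Zp1, chr19:10914302-10914331, minus strand: agatattaaatggactcAATAAAccattgt
Zp2, chr7:120132368-120132397, minus strand: aatcactgattggacttgcaAATAAAgaga
Zp3, chr5:135988603-135988624, plus strand: ccgcAATAAAagaagaaactca

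AATAAA began 11 bases after the first base of the stop codon in Zp1 and 14 bases after it in Zp2. In Zp3 it began 2 bases before that point, so the TAA stop lay inside the signal. Among 8934 tested genes with a complete coding transcript in GENCODE M21, the same letters occurred in the 30 bases from 6 before the stop codon in 185 genes (2.07%), and overlapped the stop codon in 107 (1.2%).

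All 3 mRNAs thus had very short annotated 3′ untranslated regions (3′ UTRs). The 3′ UTR after the stop codon was 34 bases in Zp1, 49 bases in Zp2 and 13 bases in Zp3, while the median of the tested genes was 949 bases. These are lengths in the annotated transcripts used. GENCODE M21 extends the Zp2 gene past its deposited 3′ end, so the end of Zp2 is less settled. A 3′ UTR as short as that of Zp1 was annotated for 154 genes (1.72%). The corresponding count was 222 genes (2.49%) for Zp2 and 92 genes (1.03%) for Zp3. Each of these counts includes 82 genes with no annotated 3′ UTR, so few genes had one as short as that of Zp3. The 5′ UTRs were 57, 30 and 35 bases, against a median of 175, and 13.8%, 6.12% and 7.6% of genes had one as short. The coding regions were not short in this way. With the stop codon they were 1872 bases in Zp1, 2142 in Zp2 and 1275 in Zp3, around the median of 1413. The transcripts had 12, 18 and 8 exons.

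**Figure D1:**
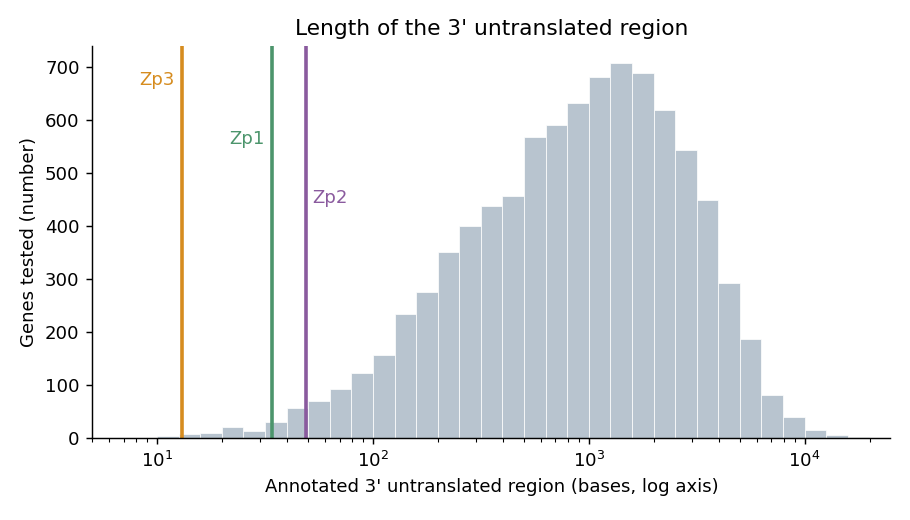
Number of tested genes with a 3′ UTR of at least 1 base (vertical axis) by the length in bases of the annotated 3′ UTR (horizontal log axis), with vertical lines at the 3 zona mRNAs. Zp3 at 13, Zp1 at 34 and Zp2 at 49 bases lie in the short tail, far below the median of 949 bases.

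Cytoplasmic polyadenylation elements, which recruit CPEB proteins and set the translation of many stored oocyte mRNAs, are usually written TTTTAT or TTTTAAT. Neither string occurred in the 3′ UTR of Zp1, Zp2 or Zp3, searched on the transcript strand, and at least 1 of them occurred in 58.8% of the 8934 genes. The absence says only that these letters are not in windows of 13 to 49 bases. At the other end of the coding region the members were alike too, as the bases around the start codon, in capitals, show.
Zp1, chr19:10920572-10920587, minus strand: gggacctccatcATGg
Zp2, chr7:120145257-120145272, minus strand: gtaccttccaacATGg
Zp3, chr5:135980122-135980137, plus strand: ccaggcgggaccATGg

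Each start codon had an A 3 bases before it and a G directly after it, the bases that favour initiation at a start codon. A purine and a G at these places were found together in 45.8% of tested genes whose transcript reached that far.

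Levels are given as FPKM, fragments scaled by the exon length of the gene and by the mapped reads of the library, which sets genes of different length on 1 scale. The deposited values hold no counts, and the depths estimated from the steps between low values were between 163197 reads (P replicate 1) and 18045713 reads (NP replicate 2). P replicate 1 was thus the shallowest library, and P replicate 2 had the lowest FPKM sum, 246182. The P libraries summed to lower totals than the NP libraries, at most 393876 against at least 597261. By the estimated depths, each member rested on at least 190 reads (Zp1 in P replicate 1), a counting error of at most 7.25%. An FPKM of 3 reads was at most 13.9 for any member, so every member was far above that floor. These figures cover counting error only and not the amplification of the RNA. Of 13 oocyte markers, 12 were listed, and all 12 were above 0 in every library. Of 13 granulosa and cumulus markers, 9 were at 0 throughout, among them Fshr, Amh and Foxl2, and the whole list summed to 11.2 to 131 FPKM in NP and 1.18 to 16.5 in P, mostly Cyp19a1 and Nr5a2. Theca and stroma markers summed to at most 8.80 FPKM in NP and 0 in P, and the 4 listed blood markers were at 0.

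Zona mRNAs were among the most abundant of the oocyte in both fractions. Zp3 ranked between 10 and 15 of all genes in NP and between 15 and 29 in P. Zp2 ranked between 30 and 61 in NP and between 20 and 60 in P. Zp1 ranked 25, 29 and 130 in NP and 80, 97 and 248 in P, and so was the only member to leave the leading 100 genes.

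Zp3 (ENSMUSG00000004948.12, plus strand, chr5:135980099-135988624) encodes the filament protein that, with ZP2, makes up most of the zona. It was at 2602, 2891 and 4157 FPKM in NP replicates 1, 2 and 3 and at 2021, 589 and 1999 FPKM in P replicates 1, 2 and 3. Every P library lay below every NP library, and P replicate 2 was far below the other two. The means were 3217 ± 827 in NP and 1536 ± 820 in P (SD, n = 3). The log2 ratio of P over NP, on log2(FPKM + 1), was -1.24 (SE 0.50), and it did not pass the threshold (limma, Benjamini-Hochberg adjusted p = 0.241 over all genes tested). FPKM is scaled within each library, so the ratio of P over NP is not the share of an mRNA on polysomes. The libraries are of bulk RNA. A shift in library scale, less RNA per oocyte and fewer oocytes carrying an mRNA in a fraction therefore cannot be told apart.

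Zp1 (ENSMUSG00000024734.8, minus strand, chr19:10914287-10920632) encodes the cross-linking protein. It was at 1624, 1721 and 795 FPKM in the NP replicates and at 589, 284 and 289 FPKM in the P replicates. The fractions did not overlap, although NP replicate 3 stood nearer to P replicate 1 than to the other NP libraries. The means were 1380.0 ± 509 in NP and 387 ± 174 in P (SD, n = 3). The log2 ratio of -1.84 (SE 0.58) was the lowest of the 3, with an adjusted p of 0.135 in the limma fit, and so was not past the threshold of 0.1. With the replicate number as a block it was past it (limma adjusted p = 0.0733), so on the deposited scale the call depends on whether libraries are paired by number. The block was fitted on that scale only. Under the 3 rescalings, without the block, the limma adjusted p of Zp1 was 0.675 to 0.729.

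Zp2 (ENSMUSG00000030911.7, minus strand, chr7:120132361-120145290) encodes the protein that ovastacin cleaves. It was at 1105, 1663 and 1352 FPKM in the NP replicates and at 1723, 602 and 927 FPKM in the P replicates. The fractions overlapped: P replicate 1 was the highest of all 6 libraries and P replicate 2 the lowest. The means were 1373 ± 280 in NP and 1084 ± 577 in P (SD, n = 3). The log2 ratio was -0.46 (SE 0.52) with an adjusted p of 0.635 in the limma fit, and its sign turned when libraries were rescaled to each other, to between 0.36 and 0.54.

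**Figure D2:**
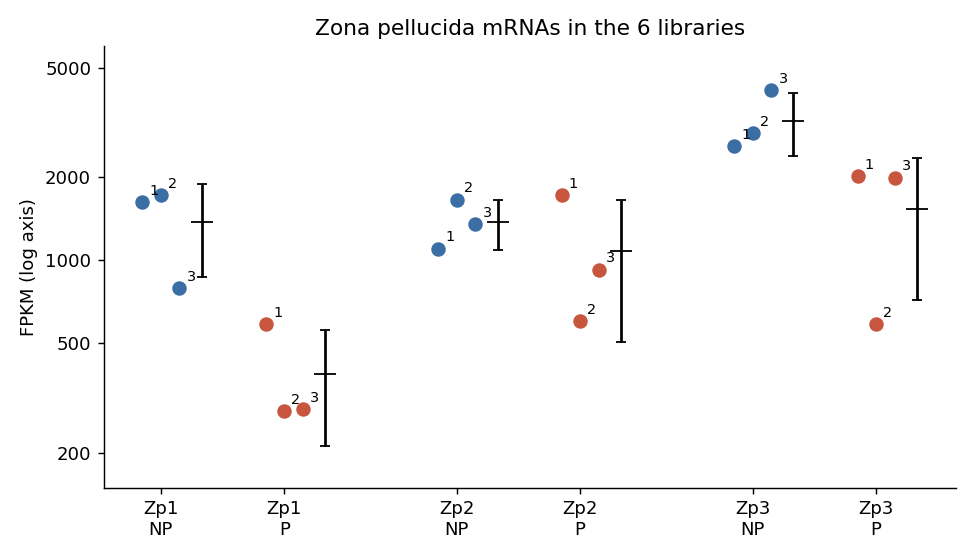
FPKM (log axis) of Zp1, Zp2 and Zp3 in the NP (blue) and P (red) libraries, with replicate numbers beside the points and the mean ± SD (n = 3) as black bars. Zp1 and Zp3 do not overlap between fractions, whereas Zp2 spans 602 to 1723 FPKM in P and 1105 to 1663 in NP, and its direction turns when libraries are rescaled.

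Without the block, none of the 3 members was called between fractions, against 192 of 10578 genes tested in either direction (1.82%) and 190 called lower in P (1.80%). With the replicate block, Zp1 was called lower in P, and so were 663 of all genes tested (6.27%), with 668 called in either direction (6.31%). The number of genes called without the block was itself unsteady, at 3, 4 and 7 under the 3 rescalings, 4, 12 and 1 without NP replicate 1, 2 or 3, and 331 without P replicate 3. In 2 of the 3 members every P library was below every NP library, as it was in 2451 of the genes tested (23.2%). With 3 libraries against 3 taken as unpaired, the smallest p of an exact two-sided permutation test is 0.1. That exact test gave p = 0.1 for Zp1, 0.5 for Zp2 and 0.1 for Zp3. With libraries paired by number, the smallest p of an exact sign-flip permutation test is 0.25, and that test was not run on the levels. A p that misses the threshold does not show that the levels were alike, since the standard errors were 0.50 to 0.58 on the log2 scale.

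The comparison was made on a shifted background. The median log2 ratio of all genes tested was -1.03, with quartiles of -1.83 and -0.22, and 80.1% of genes were below 0. After rescaling, the share below 0 was 59.7% (median of ratios), 49.9% (quantile) and 61.6% (common FPKM sum). Relative to the median gene, Zp1 stood at -0.81 and Zp2 at 0.58, and these signs held under all 3 rescalings. The sizes moved with the pseudocount. Zp1 was at -0.11 with a pseudocount of 0.1 and -1.31 with 5, and Zp2 was at 1.27 with 0.1 and 0.06 with 5. For Zp2 the value was 0.18 without P replicate 1 and 1.10 without P replicate 2, and with no filter, where the median of all genes was 0, it was -0.46. Between same-numbered libraries, Zp2 was above the median gene only for number 1 (0.64 against -1.29) and below it for number 2 (-1.46 against -1.10) and number 3 (-0.54 against -0.34). Zp3 stood at -0.21, and its sign relative to the median turned, to 0.13 with the median of ratios and with the common FPKM sum, 0.49 with a pseudocount of 0.1, 0.07 with a mean FPKM above 5, 0.30 without NP replicate 3 and 0.55 without P replicate 2. With quantile normalization it was -0.46. On the deposited scale, with a pseudocount of 1, 24.8% of genes had a lower ratio than Zp1, 42.6% a lower ratio than Zp3 and 69.0% a lower ratio than Zp2. For Zp1, Zp3 and Zp2 in that order, these shares were 47.8, 60.1 and 74.6% with a pseudocount of 0.1. With a pseudocount of 5 they were 9.9, 21.9 and 53.3%.

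**Figure D3:**
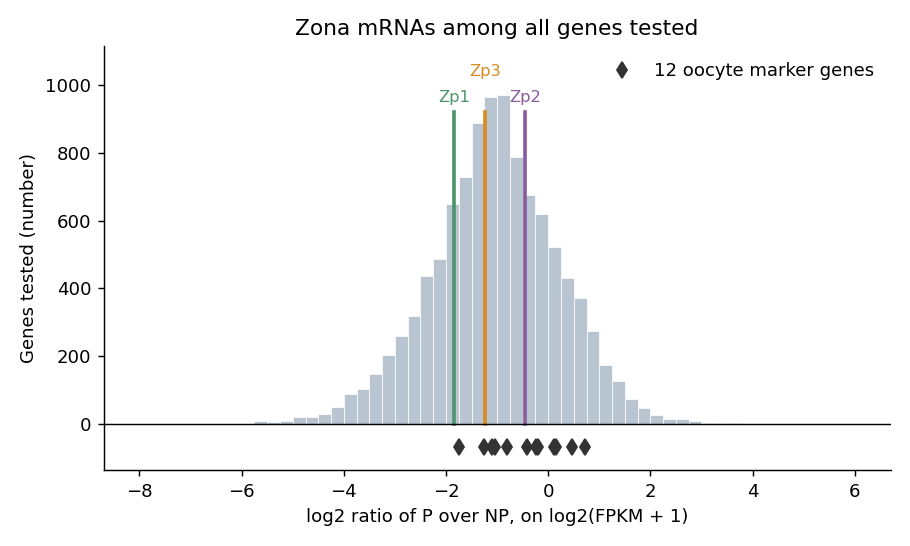
Number of tested genes (vertical axis) by the log2 ratio of P over NP on log2(FPKM + 1) (horizontal axis), with lines at the zona mRNAs and diamonds at 12 oocyte markers. Zp1 at -1.84 and Zp3 at -1.24 lie below the median of -1.03 and Zp2 at -0.46 above it, where Zp2 turns positive under all 3 rescalings and Zp3 passes the median under 2 of the 3 but not under quantile normalization.

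The members were also set among genes of like abundance. Of the 132 genes with a mean of 500 FPKM or more, the median log2 ratio was -1.33 and the quartiles were -2.24 and -0.23. Zp1 was above 37.1% of them, Zp3 above 50.8% and Zp2 above 68.9%. With this pseudocount of 1, Zp1 and Zp3 thus stood higher here than among all genes tested and Zp2 did not. The spread of the members within fractions, a residual SD of 0.61 for Zp1, 0.58 for Zp2 and 0.76 for Zp3 (log2), was near the median of 0.72 for these abundant genes and well under the 1.22 of all genes tested.

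Libraries with the same number gave different pictures. From NP replicate 1 to P replicate 1, the FPKM of Zp1 was multiplied by 0.362, that of Zp3 by 0.777 and that of Zp2 by 1.56. Between the libraries numbered 2, the factors were 0.165 for Zp1, 0.204 for Zp3 and 0.362 for Zp2. Between those numbered 3, they were 0.364, 0.481 and 0.686. Zp1 had the smallest factor and Zp2 the largest in all 3, and the factors of all members were lowest between the libraries numbered 2.

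The values moved when single libraries were left out. Without the shallow P replicate 1, the log2 ratio was -2.18 for Zp1, -0.86 for Zp2 and -1.54 for Zp3. Without P replicate 2, it was -1.66 for Zp1, -0.10 for Zp2 and -0.65 for Zp3. For Zp1, the lowest and highest ratios were those without NP replicate 3 (-2.20) and without NP replicate 2 (-1.64). No member was called in any fit without the block that left out a library, and the direction of each member held in all 6 of these fits.

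**Figure D4:**
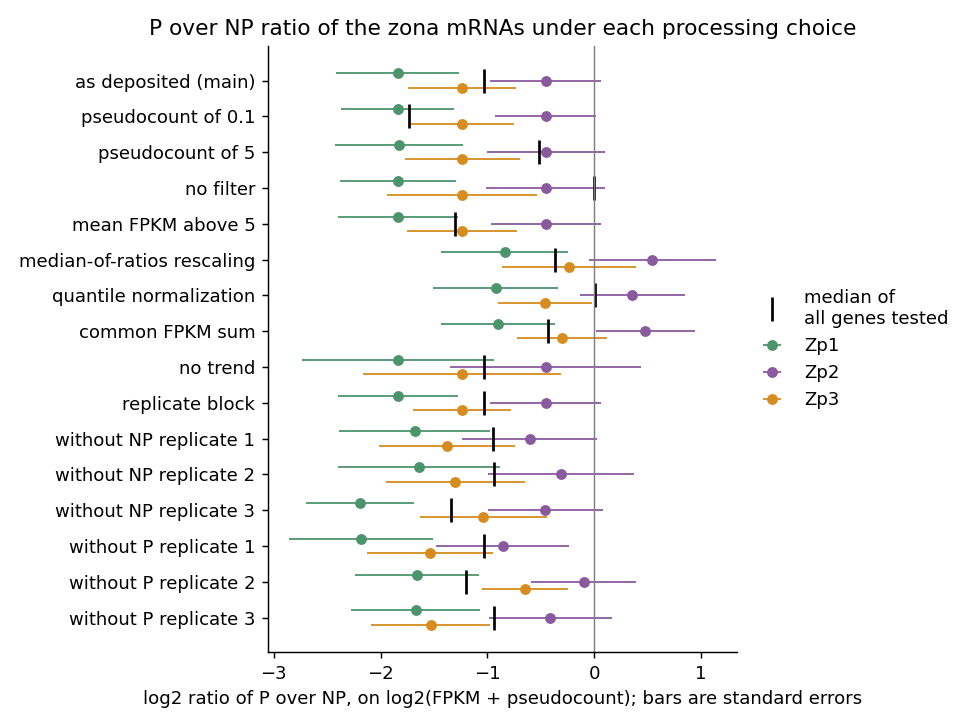
Log2 ratio of P over NP (horizontal axis) with standard errors for Zp1, Zp2 and Zp3 under each processing choice (vertical axis), with the median of all genes tested as black ticks. Zp1 ranges from -2.20 to -0.84 and Zp3 from -1.54 to -0.24, while Zp2 crosses 0, reaching 0.54 under the median-of-ratios rescaling.

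Ratios between members within a library do not depend on a constant scaling factor of that library. Quantile normalization is not such a factor, and the ratios below are of the deposited values. The ratio of Zp2 to Zp1 was 0.680, 0.966 and 1.70 in the NP replicates and 2.93, 2.12 and 3.20 in the P replicates. All P libraries were thus above all NP libraries, and Zp2 was less abundant than Zp1 in NP replicates 1 and 2 but not in the other 4 libraries. How many other gene pairs separate in this way was not counted. The difference in log2 ratio was 1.38 (SE 0.42; exact permutation p = 0.1, the smallest that 3 against 3 allow, Benjamini-Hochberg adjusted p = 0.3 over the 3 ratios).

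The ratio of Zp3 to Zp2 was 2.35, 1.74 and 3.08 in NP and 1.17, 0.978 and 2.16 in P. It was lower in P within each number, but the fractions overlapped. The difference was -0.78 (SE 0.42; exact permutation p = 0.2, adjusted p = 0.3). The ratio of Zp3 to Zp1 was 1.60, 1.68 and 5.23 in NP and 3.43, 2.08 and 6.91 in P, a difference of 0.60 (SE 0.75; exact permutation p = 0.5, adjusted p = 0.5). It was higher in P within each number, but the fractions overlapped. Here the libraries numbered 3 stood above all others in both fractions.

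Summed, the 3 mRNAs were at 5331, 6276 and 6304 FPKM in the NP replicates and at 4332, 1476 and 3215 FPKM in the P replicates. Their means were 5970.2 ± 554 in NP and 3008 ± 1439.7 in P (SD, n = 3). The NP sums were close to each other (coefficient of variation 9.28%), although NP replicate 3 had the least Zp1 and the most Zp3. As a percentage of all FPKM in a library, the sum was 0.871, 0.991 and 1.06 in NP and 1.27, 0.599 and 0.816 in P. By this measure the fractions overlapped, with means of 0.973 ± 0.0935 and 0.895 ± 0.341 (SD, n = 3).

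Zp3 was the largest share of the summed zona mRNA in all libraries but P replicate 2, where Zp2 held 40.8% and Zp3 39.9%. Zp2 held 20.7 to 26.5% of the sum in NP and 28.8 to 40.8% in P, without overlap. This share comes from the same values as the ratio of Zp2 to Zp1 and is not separate support. How often shares of other genes separate in this way was not counted. Zp1 held 30.5, 27.4 and 12.6% in NP and 13.6, 19.2 and 9.0% in P. The lowest NP share of Zp1, in replicate 3, was below the P shares of replicates 1 and 2.

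**Figure D5:**
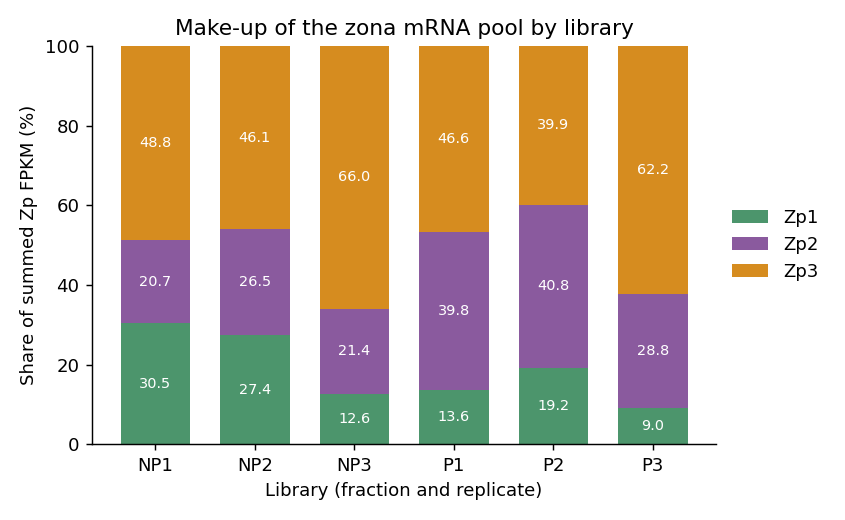
Share (%) of the summed FPKM of the 3 zona mRNAs held by Zp1, Zp2 and Zp3 (vertical axis) in each of the 6 libraries (horizontal axis). Zp2 takes 20.7 to 26.5% in NP and 28.8 to 40.8% in P, while Zp3 is highest in the libraries numbered 3, at 66.0% in NP and 62.2% in P.

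The members were also set against other oocyte mRNAs of the same library. As an alternative chosen after the data were seen, each member was expressed relative to the mean log2(FPKM + 1) of the 12 oocyte markers, among them Gdf9 and Bmp15, growth factors of the oocyte. By that measure Zp1 was 1.67, 1.45 and 0.49 above the markers in NP and 0.16, 0.29 and -1.02 from them in P, a difference of -1.39 (SE 0.55). The corresponding difference was -0.79 (SE 0.27) for Zp3, also without overlap, and -0.01 (SE 0.32) for Zp2, whose fractions overlapped. The share of all genes without overlap on this scale was not counted. The exact permutation p, with libraries taken as unpaired, was 0.1, 0.9 and 0.1 for Zp1, Zp2 and Zp3, with adjusted values of 0.15, 0.90 and 0.15. None of the 12 markers was called, 8 of them had a log2 ratio below 0, and their median was -0.33. Gdf9 (0.72) and Bmp15 (0.47) had the highest ratios of the 12. The marker mean was itself not steady, at 9.15 in NP and 8.70 in P, with 7.87 in P replicate 2.

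Genes around the zona were counted in the same fit. Of 7 transcription factors of the zona genes and their oocyte program, 6 were tested, 1 was lower in P, none higher and 5 not past the threshold. Taf4b passed the filter on low values through NP alone, which sets its direction, so no median is given. Over all genes tested, 1.80% were called lower in P, a share that moves with the setting as given above. The one that fell was Nobox, a homeobox factor needed for oocyte growth, with values of 387, 567 and 406 FPKM in NP and 32.1, 104 and 37.3 FPKM in P. All P values were far below all NP values, with a log2 ratio of -3.13 (SE 0.76; limma adjusted p = 0.0586). The call was lost in the fits without NP replicate 1, 2 or 3 (adjusted p = 0.351, 0.353 and 0.165), with log2 ratios of -3.23, -2.96 and -3.20 that were about as large. It was also lost under all 3 rescalings (0.518 to 0.650), where the ratio was -2.14, -2.0 and -2.20. Figla, which binds the E-box shared by the zona promoters, was at most 3.46 FPKM in any library, and Sohlh1 was listed at 0 throughout.

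Of 12 other genes that encode a ZP domain, 11 were listed, 6 were at 0 in all libraries and 4 were tested. Of these 4, Zpld1 and Dmbt1 passed the filter on low values through NP alone, which sets their direction, so no median is given. Umodl1 was lower in P, none was higher and 3 did not pass, beside the 1.80% of all genes called lower in P. Umodl1, named for its likeness to uromodulin, had values of 1511, 1721 and 977 FPKM in NP and 276, 281 and 388 FPKM in P. In NP it was therefore near the level of Zp1, and in P all libraries were below 400 FPKM. Its log2 ratio was -2.13 (SE 0.56; limma adjusted p = 0.0706), and the call was lost in each fit that left out a library except P replicate 3 (adjusted p between 0.109 and 0.433), with log2 ratios between -2.37 and -1.96. It was also lost under the rescalings (0.646 to 0.679), where the ratio was between -1.20 and -1.13. That Umodl1 passed while Zp1, at -1.84, did not is no test of a difference between them, which was not made.

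No gene was called among those that cleave or guard zona proteins (5 of 6 tested, median log2 ratio -0.75) or build their glycans (4 of 6 tested, -0.75). None was called among those that fold secreted proteins in the endoplasmic reticulum (8 of 8 tested). Of these 8, 1 passed the filter through P alone, which sets its direction, so no median is given. In the whole limma fit 1669 of 10578 genes had an unadjusted p below 0.05. Astl, which encodes ovastacin, had values of 258, 190.3 and 392 FPKM in NP and 1180.3, 118 and 508 FPKM in P. Its fractions overlapped, and P replicate 1 was the highest, as for Zp2 (log2 ratio 0.63, limma adjusted p = 0.654). Fetub, an inhibitor of ovastacin, was at most 36.2 FPKM. P4hb, a protein disulfide isomerase, had values of 385, 499 and 577 FPKM in NP and 275, 105 and 176 FPKM in P, without overlap (log2 ratio -1.48, limma adjusted p = 0.289). Calr, the lectin chaperone calreticulin, overlapped (log2 ratio -0.86, limma adjusted p = 0.568). Stt3b, a catalytic subunit of oligosaccharyltransferase, had a log2 ratio of 0.27 and Mgat1, which starts complex N-glycans, one of -0.29, with limma adjusted p of 0.885 and 0.914.

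The profiles most like those of the zona mRNAs were named from Pearson's r of log2(FPKM + 1) over the 6 libraries, which share the split into fractions and the depth of each library, so r describes these libraries only. The mean profile of the members was most like Daglb (r = 0.993), Rnf130 (0.991), Surf4 (0.987), Pdcd2l (0.98) and Car9 (0.979). Hax1, Aspscr1 and Dctn3 were nearest to Zp1 (0.996, 0.995 and 0.992). Rpa2, Pcx and Gm10250 were nearest to Zp2 (0.995, 0.960 and 0.957). Tecr, Rfxank and Hras1 were nearest to Zp3 (0.998, 0.996 and 0.989). Of 10575 other genes, 333 had an r above 0.9 with Zp1, 107 with Zp3 and 43 with Zp2.

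By 3′ UTR length, the 219 other genes with at most 49 bases, the length in Zp2, and with those that have none annotated among them, had a median log2 ratio of -1.45. The 8409 genes with over 100 bases had a median of -1.01. This is a description of annotated lengths across genes, and Zp1 (-1.84) and Zp3 (-1.24) lay on either side of the first median while Zp2 (-0.46) lay above both.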

How the data were processed

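Libraries were made from pooled NP and P gradient fractions, by rRNA depletion, whole transcriptome amplification and a transposase kit that does not mark strand. Per the submitters' processing notes, reads were processed with Trim Galore 0.4.1, FastQC 0.11.5 and HISAT2 2.0.5 on GRCm38. The authors deposited FPKM per gene, made with SeqMonk. No source used here names the annotation release or the read filters. Since FPKM is scaled by mapped reads, reads that fall outside the listed genes lower all values of their library. The authors' mean columns were not used.

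Groups came from the labels. The fractions of each sample were pooled into an NP and a P part, so libraries with 1 number were taken as parts of 1 gradient, although no source used here states that the numbers match. Deviations from the fraction means were only weakly correlated between same-numbered libraries, at r = 0.063, 0.099 and 0.116, against -0.089 to 0.021 for other pairs. The deviations of a gene cancel within a fraction, so a higher r in some pairs tends to lower that of others. This contrast therefore does not test the pairing. The main fit had no replicate block, and the blocked value is given where it changes a call. P and NP (3 libraries each) were compared with limma 3.58.1 under R 4.3.3 (log2(FPKM + 1), trend on the mean), Benjamini-Hochberg adjustment, a two-sided threshold of 0.1 and a mean FPKM above 1 in either fraction. Ratios between members were compared with exact two-sided permutation tests (SciPy 1.17.1). Of 25965 rows, 58 symbols were repeated, and the row with the highest mean was kept. Depth was estimated from FPKM steps with GENCODE M21 exon lengths (87.4% of symbols). Only 60.2 to 67.0% of low values per library were whole within 0.02 reads, so no count test was run and depths are estimates. Sequences and transcript lengths are from GENCODE M21 (GRCm38), whose gene ends matched the deposited ones for Zp1 and Zp3. For Zp2, M21 extends the gene past its deposited 3′ end, and the main coding transcript was used.

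The members and lists were chosen with earlier results of these data known. Besides the members, genes named are list members past the threshold, or else the 2 of a list with the highest mean, and those with the most similar profiles. Figla, Sohlh1, Taf4b, Zpld1, Dmbt1, Gdf9, Bmp15 and the granulosa genes were named outside this rule, after their values were seen. As alternatives, the pseudocount, filter, scaling and trend were varied, a replicate block was fitted and each library was left out. The comparison with oocyte markers and the list counts under alternatives were added after seeing the data.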

Additional observations from a re-analysis of the deposited data

How the results depend on the processing

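Zp1 and Zp3 stayed below 0 in every alternative, though the filters, trend and block leave the ratio as it is by construction. The 3 rescalings, in the order below, gave smaller ratios, -0.84, -0.92 and -0.90 for Zp1 and -0.24, -0.46 and -0.30 for Zp3. Zp2 turned to 0.54 with median-of-ratios rescaling, 0.36 with quantile normalization and 0.48 with a common FPKM sum. Leaving out 1 library gave -2.20 to -1.64 for Zp1, -0.86 to -0.10 for Zp2 and -1.54 to -0.65 for Zp3. With a replicate block on the deposited scale, Zp1 was called lower in P at -1.84 (limma adjusted p = 0.0733), and no other member was called (Zp2 0.613, Zp3 0.132). The block was not fitted on rescaled values. The replicate block changed no other call among the members and list genes. The number of genes called, 192, became 69 with a pseudocount of 0.1, 1 with no filter, 3 with median-of-ratios rescaling, 4 with quantile normalization, 7 with a common FPKM sum, 15 with no trend and 668 with the replicate block. It was between 1 (without NP replicate 3) and 331 (without P replicate 3) when a library was left out, with 4 without NP replicate 1 and 12 without NP replicate 2. The 2 list genes called lower became 1 with a pseudocount of 5 and 0 with no filter, the 3 rescalings or no trend, where 762 to 1774 genes had an unadjusted p below 0.05 by limma, and were between 0 and 2 when a library was left out. No list gene was called higher in any fit. The ratios between members kept their direction: 1.08 to 1.74 for Zp2 over Zp1, 0.14 to 1.16 for Zp3 over Zp1 and -1.12 to -0.55 for Zp3 over Zp2 when a library was left out, and with the replicate block the exact sign-flip permutation p was 0.25 for each, the smallest that 3 pairs allow. The cause of these shifts was not tested.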
